A study of Mus musculus with 4 samples.

Results

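Esm1, Emcn, Pecam1, Cd34, Icam2 and Thbd are 6 genes best known from the cells that line blood vessels, and they were followed here in cultured vascular smooth muscle cells (VSMC) of the mouse, the cells that contract and relax the artery wall. They were listed by name, and each probe set was assigned to a gene through the RefSeq accession in its identifier. The 6 genes had 7 probe sets, among 909 named genes and 1246 probe sets on an array made up largely of genes for sugar chains, cytokines and growth factors. Esm1 had 2 probe sets, 1 marked s (its probes may fit more than 1 transcript) and a second without that mark. The other genes had 1 each, and that of Icam2 was also marked s. The genes were selected on measured values of these same arrays, with their differences between cultures and between streptozotocin and control in view, so those differences are given as a description and support no inference.

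The series held 4 arrays. All cells were wild type and were grown in osteogenic medium, which drives VSMC towards a bone-like state. The titles of all 4 samples also carry the mark 3w, which the labels do not explain. Of these, 2 arrays came from cells that also received 0.4 mM streptozotocin, a glucosamine-bearing nitrosourea used to destroy pancreatic beta cells, and 2 from cells without it. Each arm had 1 array of a cell sample named WTA (replicate 2) and 1 of a cell sample named WT2 (replicate 1), called cultures below. The labels do not say whether WTA and WT2 came from different animals, so any spread between arrays may be technical. The design text asks how genes for sugar chains respond to streptozotocin during VSMC calcification. Values are on the log2 scale as deposited, where 1 unit is a 2-fold difference. Array medians ran from 5.83 to 5.87, lower quartiles from 4.39 to 4.40 and upper quartiles from 8.58 to 8.69. Across all probe sets the WTA arrays correlated at 0.997 with each other, the WT2 arrays at 0.988, and the lowest correlation, 0.977, was between the streptozotocin array of WTA and the control array of WT2.

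Endothelial cells carry a set of surface and secreted glycoproteins that keep blood fluid, hold neighbouring cells together and control the passage of leukocytes. Esm1 (endocan) is a secreted dermatan sulfate proteoglycan that marks the leading cells of growing vessels. Emcn (endomucin) and Cd34 are sialomucins, stalk-like surface proteins covered with sialylated O-glycans. Pecam1 and Icam2 are immunoglobulin-type adhesion molecules of the endothelial cell contacts, both also made by blood cells. Thbd (thrombomodulin) binds thrombin and turns it from a clotting enzyme into an activator of the anticoagulant protein C. Several of these genes are not confined to endothelium: Cd34 is also made by blood progenitors and by fibroblasts of the vessel's outer coat, and Thbd by other cell types as well.

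Of the 6 genes, 3 were matched in the promoter table, Esm1, Emcn and Cd34, and all 3 are shown. The 250 bases before the RefSeq start site (build GRCm38.p6, plus strand in all) carry the sequences that follow. Capitals mark GGAA, the core recognised by ETS transcription factors, which are known regulators of endothelial genes, and its reverse complement TTCC. The windows are chr13:113209409-113209658 for Esm1, chr3:137340828-137341077 for Emcn and chr1:194938571-194938820 for Cd34.
Esm1: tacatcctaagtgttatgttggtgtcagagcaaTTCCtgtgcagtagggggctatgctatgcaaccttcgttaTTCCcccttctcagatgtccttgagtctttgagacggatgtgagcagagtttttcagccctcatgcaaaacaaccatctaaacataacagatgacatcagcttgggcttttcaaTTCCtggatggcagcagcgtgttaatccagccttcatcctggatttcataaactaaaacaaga
Emcn: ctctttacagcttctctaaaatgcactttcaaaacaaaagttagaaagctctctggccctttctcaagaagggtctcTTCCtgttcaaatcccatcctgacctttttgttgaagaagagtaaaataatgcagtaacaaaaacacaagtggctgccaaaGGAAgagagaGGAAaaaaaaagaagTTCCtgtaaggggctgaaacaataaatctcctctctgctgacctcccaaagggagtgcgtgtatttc
Cd34: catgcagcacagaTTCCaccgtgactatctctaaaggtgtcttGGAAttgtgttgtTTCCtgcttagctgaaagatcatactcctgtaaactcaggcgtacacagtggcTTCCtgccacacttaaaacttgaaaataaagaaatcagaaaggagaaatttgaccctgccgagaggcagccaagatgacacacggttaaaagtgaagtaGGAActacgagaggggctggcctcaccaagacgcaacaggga
The core occurred 3 times before Esm1, 4 times before Emcn and 5 times before Cd34, counting both strands. Of 32851 such windows over all genes in the table, 93.4% held at least 1, with a median of 3, so its presence does not set these genes apart. The motif TATAAA, searched on both strands and not overlapping GGAA, was in none of the 3 windows and in 12.4% of all windows. The share of G and C was 44.0% for Esm1, 40.8% for Emcn and 46.4% for Cd34, against a median of 52.4% over all windows. A match in letters is not evidence of binding, and these arrays measured none.

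Esm1 was the member that varied most. Its s-marked probe set stood at 9.33 and 8.999 in WTA (streptozotocin and control), against 4.48 and 3.99 in WT2. Both WTA arrays lay above the upper quartile of their arrays, while the WT2 values lay within 0.5 of the lower quartile, so the cultures were far apart and did not overlap. The mean was 9.16 ± 0.23 in WTA and 4.23 ± 0.35 in WT2 (SD, n = 2 each), a WTA minus WT2 difference of 4.93. It was 4.84 between the streptozotocin arrays and 5.01 between the control arrays. The SDs of culture means, here and below, hold the streptozotocin difference, since each culture has 1 array of each arm. In bulk RNA, fewer cells that make a transcript cannot be told from less of it per cell.

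The second Esm1 probe set gave the same order of arrays. It stood at 6.03 and 5.97 in WTA, streptozotocin and control, against 3.32 and 2.81 in WT2. Its WTA minus WT2 difference was 2.93, with 2.71 between the streptozotocin arrays and 3.16 between the control arrays. The probe sets agree in direction and in the separation of the cultures, but their sizes are 1.99 apart. The gap between them was 3.30 and 3.03 in WTA but 1.16 and 1.18 in WT2. In WT2 both lay near or below the lower quartile, where background can make up part of an array value. The s-marked probes may also fit more than 1 transcript. The part of each in the gap was not tested, and neither size is read as a fold change of the transcript. Among all 1246 probe sets the WTA minus WT2 differences of the Esm1 probe sets ranked 1 and 2 in size.

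Thbd was bright in all arrays and also higher in WTA. Its log2 value was 10.57 and 10.37 in WTA (streptozotocin and control), against 9.64 and 8.63 in WT2. The WT2 control array was the lowest of the 4, and the cultures did not overlap. The difference, 1.33 on average, was 0.93 between the streptozotocin arrays and 1.74 between the control arrays. Culture means were 10.47 ± 0.14 in WTA and 9.14 ± 0.72 in WT2 (SD, n = 2 each).

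Emcn, the endothelial sialomucin, was dim to moderate. It stood at 5.65 and 6.17 in WTA, streptozotocin and control, against 4.76 and 4.64 in WT2. Both WTA arrays were above both WT2 arrays, by 0.89 in the streptozotocin arm and 1.54 in the control arm. Its WTA minus WT2 difference was 1.22, from means of 5.91 ± 0.37 in WTA and 4.70 ± 0.08 in WT2 (SD, n = 2 each).

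Cd34 went the other way. Its log2 value was 8.93 and 9.38 in WTA (streptozotocin and control), against 9.99 and 10.46 in WT2. All 4 values lay above the upper quartile of their arrays, with the highest in the WT2 control array. The difference was nearly the same in both arms, -1.06 between the streptozotocin arrays and -1.08 between the control arrays. The culture means were 9.15 ± 0.32 in WTA and 10.22 ± 0.34 in WT2 (SD, n = 2 each), a difference of -1.07.

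Pecam1 and Icam2, the adhesion molecules, had the smallest differences of the 6 genes between the cultures. Pecam1 stood at 3.92 and 3.997 in WTA, against 3.83 and 3.79 in WT2, all below the lower quartile. Its WTA minus WT2 difference was 0.15. Icam2 had 5.61 and 5.54 in WTA, against 5.88 and 5.65 in WT2, a difference of -0.19. Pecam1, the marker by which endothelial cells are commonly recognised, was thus dim in all 4 arrays, and the name endothelial-type rests on what the 6 genes are known for elsewhere.

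**Figure D1:**
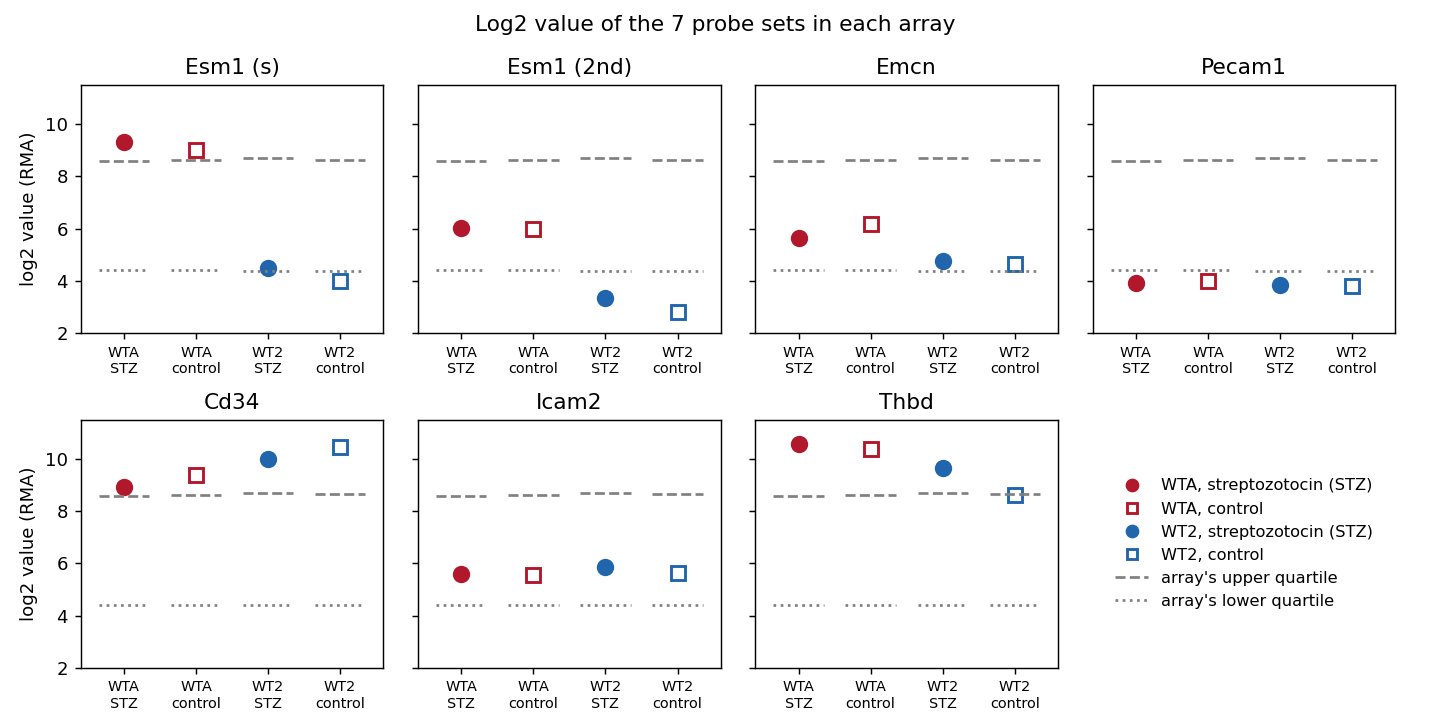
Log2 value (RMA, vertical axis) of the 7 probe sets in the 4 arrays, with WTA in red, WT2 in blue, filled circles for streptozotocin and open squares for control; dashed and dotted bars are each array's upper and lower quartiles. Esm1, Emcn and Thbd are higher in both WTA arrays, Cd34 is higher in both WT2 arrays, and Pecam1 stays below the lower quartile.

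All 7 probe sets had cultures that did not overlap, 5 with WTA above and 2 with WTA below. Over all probe sets 21.3% had both WTA arrays above both WT2 arrays and 27.7% had both below, so such separation is common here. A difference of at least 1.5-fold in both arms was found for 4 of the 7 probe sets in the direction of WTA (both of Esm1, Emcn and Thbd), against 3.05% of all probe sets, and for 1 in the other direction (Cd34), against 2.49%. In limma's fit of treatment and culture, 2.25% of all probe sets were called (adjusted p below 0.05), 1.44% with WTA higher and 0.803% with WTA lower. Of the 7, the called ones were both Esm1 probe sets and Cd34, while Emcn, Thbd, Pecam1 and Icam2 were not called. Nothing is read from these counts, because the genes were listed with this contrast known. With 1 array left out, in a fit of the culture alone, the Esm1 probe sets were no longer called without either WTA array (s-marked probe set 4.76 without the streptozotocin array and 5.09 without the control array, second probe set 2.90 and 2.97). Cd34 was called in none of the 4 such fits, nor in the fit of the culture alone on all 4 arrays, and Thbd was called without the WT2 streptozotocin array (1.84).

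**Figure D2:**
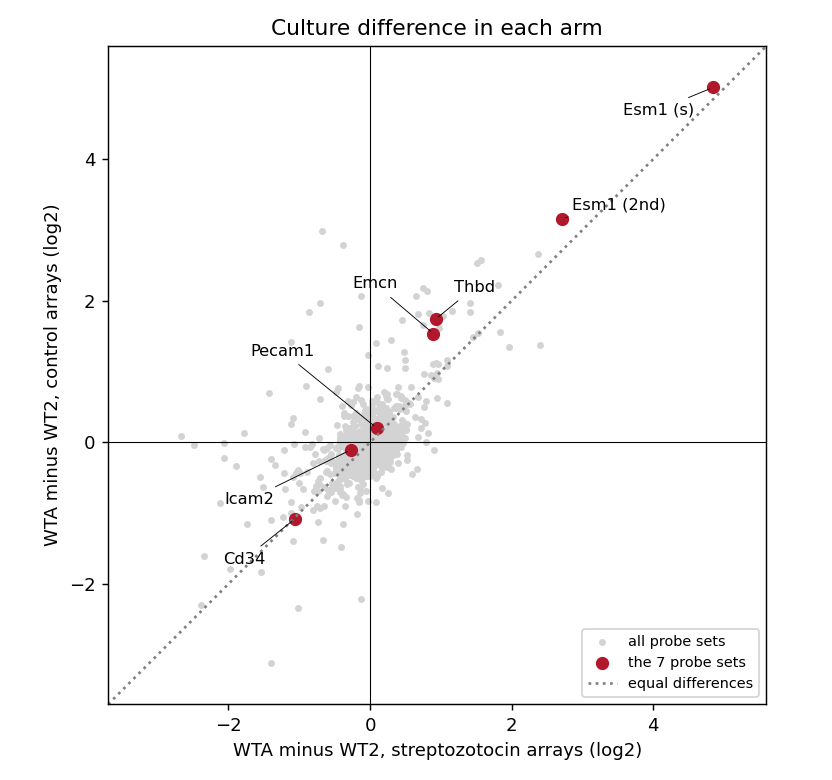
WTA minus WT2 difference (log2) between the streptozotocin arrays (horizontal) and between the control arrays (vertical) for all 1246 probe sets in grey and the 7 probe sets in red; the dotted line marks equal differences. The Esm1 probe sets stand at the upper right, at 4.84 and 5.01 and at 2.71 and 3.16, Thbd and Emcn lie above the line, and Cd34 sits on it at -1.06 and -1.08.

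Streptozotocin against control was compared within each culture, with 1 array per arm there and so no test. Thbd differed by 0.20 in WTA and 1.01 in WT2, and its WT2 value was the largest of the 7 probe sets in either culture. With streptozotocin it averaged 10.11 ± 0.66, against 9.50 ± 1.23 without (SD, n = 2 each). The SDs hold the culture difference, since each arm has 1 array of each culture. The mean difference of 0.60 had an SE of 0.73 in limma's fit without the block and 0.23 with it, and neither fit called it. The larger value in WT2 goes with the low WT2 control array, and the streptozotocin array of WT2 was still below both WTA arrays.

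Esm1 had a positive difference in both cultures by both probe sets. The s-marked probe set differed by 0.33 in WTA and 0.50 in WT2, and the second by 0.06 in WTA and 0.52 in WT2. Cd34 differed to nearly the same extent in each culture, by -0.46 in WTA and -0.48 in WT2, with means of 9.46 ± 0.75 over the streptozotocin arrays and 9.92 ± 0.76 over the controls (SD, n = 2 each). Icam2 differed by 0.07 in WTA and 0.23 in WT2. Emcn differed by -0.52 in WTA and 0.12 in WT2, and Pecam1 by -0.08 in WTA and 0.04 in WT2, so these pointed in opposite directions in the cultures.

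Only Thbd in WT2 reached a 1.5-fold difference, 1 of 7 probe sets, where 4.82% of all probe sets were at least that much higher in WT2 and 0.642% in WTA, and 2.49% and 1.69% were at least that much lower. Of the 7, 4 were higher with streptozotocin in both cultures and 1 lower in both, against 22.6% and 28.5% of all probe sets. For all 7 the streptozotocin and control arrays overlapped, while 10.8% of all probe sets had both streptozotocin arrays above both control arrays and 13.8% had both below. The limma fit of streptozotocin against control called 0.0% of probe sets, with 25 of 1246 (2.01%) at an unadjusted p under 0.05, none of them a member. With the replicate number as a block, so that arrays of 1 culture are paired, 0 were called. In that fit 80 (6.42%) had an unadjusted p under 0.05, among them the s-marked Esm1 probe set and Cd34. Nothing is read from their presence, because the genes were selected with this contrast in view.

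**Figure D3:**
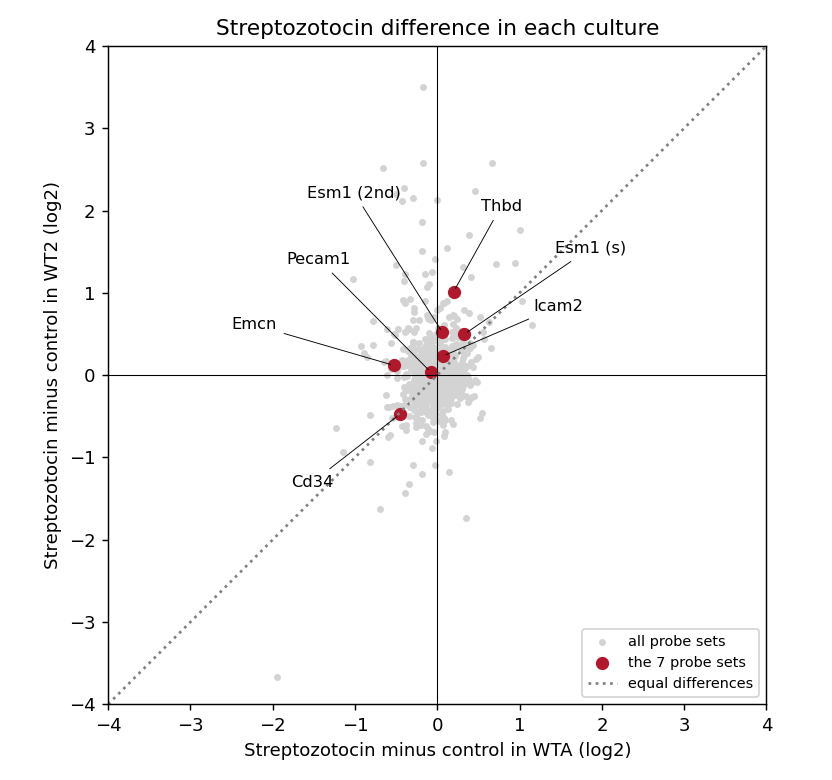
Streptozotocin minus control (log2) in WTA (horizontal) and in WT2 (vertical), 1 array per arm in each, for all 1246 probe sets in grey and the 7 probe sets in red; the dotted line marks equal differences. Thbd stands at 0.20 and 1.01, Cd34 close to the line at -0.46 and -0.48, and Emcn and Pecam1 on opposite sides of 0 in the cultures.

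Of a list of 35 endothelial markers, 13 were measured (here and below, found among the named probe sets), the 6 genes included. For the 7 others the median WTA minus WT2 difference was 0.01, against -0.02 over all probe sets. Of the 7, 0 were called, where 2.25% of all probe sets were. Selp, P-selectin, which captures rolling leukocytes, had the largest difference of these 7. It stood at 6.93 and 6.27 in WTA, streptozotocin and control, against 5.98 and 5.65 in WT2, a difference of 0.79, while the other 6 differed by -0.11 to 0.10. Of those 7 genes 3 lay below the lower quartile in every array, as did 284 of all 1246 probe sets. The 3 were Cd93 and Clec14a, surface lectins of endothelial cells, and Sele, the cytokine-induced E-selectin, which was named after its values were seen. The level summed over the 7 genes on the linear scale was 256 and 213 in WTA (streptozotocin and control), against 199 and 187 in WT2. Without Selp the other 6 summed to 134 and 136 in WTA, against 136 and 137 in WT2, so the difference in the sum lay in Selp. Leaving out Selp, the gene with the largest culture difference of the 7, was not a planned step. The part of endothelial cells in the results for Esm1, Emcn and Thbd was not tested.

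**Figure D4:**
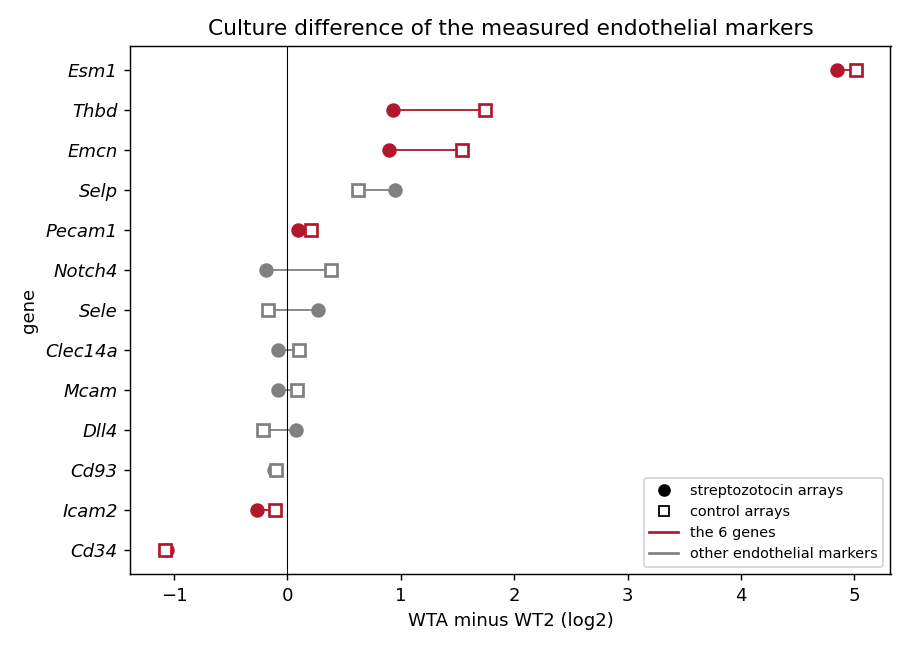
WTA minus WT2 difference (log2, horizontal) of the 13 measured endothelial markers, the 6 genes in red and the others in grey, with filled circles for the streptozotocin arrays, open squares for the control arrays and a line joining them. Esm1, Thbd, Emcn and Selp lie to the right of 0 in both arms, Cd34 to the left at about -1.07, and most of the grey markers near 0.

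The families to which the 6 genes belong were set beside them. Over all probe sets 2.25% were called for the culture. A count of 0 called in lists this short is therefore common, and nothing is read from it. Among sialomucins related to Cd34 and Emcn, 5 others were measured and 0 were called, with a median WTA minus WT2 difference of 0.05. Podxl2, a relative of Cd34, differed by -0.37, and Cd164, a widely made sialomucin, by 0.21. Thbd belongs to a small family of lectin-domain receptors, of which 3 others were measured and 0 were called. Cd248 (endosialin), made by stromal cells and pericytes, stood at 11.08 and 11.11 in WTA, against 11.54 and 11.66 in WT2, a difference of -0.50. Cd93 and Clec14a differed by -0.11 and 0.01. Of 11 genes for control of coagulation at the cell surface, Thbd alone was among the named probe sets.

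Among the adhesion molecules, Icam1, the cytokine-induced relative of Icam2, had values like those of Thbd. It stood at 9.93 and 9.80 in WTA (streptozotocin and control), against 9.28 and 7.73 in WT2, again with the WT2 control array lowest. Vcam1, a ligand of leukocyte integrins, had 10.54 and 10.45 in WTA, against 10.79 and 10.44 in WT2. The 3 adhesion genes outside the 6 had a median WTA minus WT2 difference of 0.05 and 0 were called.

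VEGF and angiopoietin ligands, which act on endothelial receptors, were measured by 7 genes, with 0 called and a median WTA minus WT2 difference of 0.53. Both WTA arrays were above both WT2 arrays for 5 of the 7 and below them for the other 2 (Angpt1 and Vegfd), against 21.3% and 27.7% of all probe sets. Angpt2, an antagonist and context-dependent ligand of the Tie2 receptor, stood at 11.46 and 11.64 in WTA, streptozotocin and control, against 9.06 and 10.26 in WT2, a difference of 1.89. Angpt4 differed by 1.29 and Vegfc, the lymphatic growth factor, by 0.77. Angpt1, the main Tie2 agonist, differed by -1.14 on average, with -2.06 between the streptozotocin arrays and -0.22 between the controls. None of the VEGF or Tie receptors in the list was among the named probe sets.

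The genes with profiles nearest to those of Esm1, Thbd and Cd34 were found by the root mean square (RMS) difference of the 4 values after each probe set's own mean was taken off, over 962 other named probe sets. For the s-marked Esm1 probe set the nearest was its own second probe set (RMS 1.00), then Klra4, a receptor of natural killer cells with near-identical copies (1.22), and Col14a1, a collagen of fibril surfaces (1.46), against a median of 2.48. None came within 0.25. Near Thbd were Il15, a lymphocyte growth factor (0.09), and Il4ra, a receptor chain for interleukins (0.17). In both the WT2 control array was lowest, as in Thbd. Of the 962, 11 lay within 0.25 of Thbd, where the median was 0.78. Cd34 was most like Fgfr2, a fibroblast growth factor receptor (0.04), Colec12, a scavenger lectin (0.11), and Pdgfra, the platelet-derived growth factor receptor of fibroblasts (0.13). Fgfr2 stood at 7.25 and 7.74 in WTA, against 8.36 and 8.73 in WT2. Of the 962, 20 lay within 0.25 of Cd34, where the median was 0.58.

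Markers of other cells were read beside these results. None of 7 smooth muscle markers was among the named probe sets, so the labelled cell type could not be checked against them. All 3 measured fibroblast markers were bright. They had negative streptozotocin differences in both cultures, as did Cd34 and 28.5% of all probe sets. Of the 3, Pdgfra and Dcn had both WTA arrays below both WT2 arrays, against 27.7% of all probe sets. For Lum the cultures overlapped. Pdgfra stood at 11.30 and 11.64 in WTA (streptozotocin and control), against 12.05 and 12.54 in WT2. Dcn, a proteoglycan of collagen matrix, had a WTA minus WT2 difference of -0.43. For Lum, another such proteoglycan, it was 0.26 between the streptozotocin arrays and -0.72 between the controls. The level summed over the 3 genes was 7202 and 9306 in WTA, against 10378 and 14217 in WT2, and 0 of the 3 were called. The part of fibroblast-like cells in the Cd34 result was not tested.

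For blood cells, 11 of 26 leukocyte and platelet markers were measured. Below the lower quartile in all arrays lay 7 of these 11, and 284 of all 1246 probe sets. The median WTA minus WT2 difference of the 11 was 0.04, with 0 called, against 2.25% of all probe sets. The summed level of the 11 was 491 and 416 in WTA, against 406 and 442 in WT2. Without Csf1r, the macrophage growth factor receptor, the other 10 summed to 249 and 238 in WTA, against 237 and 241 in WT2. Leaving out Csf1r was likewise not a planned step. Adgre1, the macrophage antigen known as F4/80, was at 3.16 and 2.87 in WTA, against 2.79 and 3.00 in WT2. Mrc1, a mannose receptor of macrophages, differed by -0.20. Csf1r was above the median in all 4 arrays, at 7.92 and 7.47 in WTA, against 7.40 and 7.66 in WT2. It differed by 0.52 between the streptozotocin arrays and -0.18 between the controls, 0.17 on average.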

How the data were processed

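Total RNA was extracted with Trizol and biotin-labelled cRNA was made by an Affymetrix procedure, per the labels' protocols. In the table, as deposited, each probe set has 1 log2 value per array. The authors computed these with RMA, according to the submitters' processing notes, in a version not given in the sources used. RMA commonly equalises the arrays' distributions, so a shift shared by most genes would not show. The number of arrays limits the precision.

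Accessions were matched without version to a RefSeq gene table (GRCm38.p6, names only): 963 of 1246 probe sets had 1 symbol and 283 none here. Groups, replicate numbers and cultures came from the sample titles. Same-numbered arrays share a named culture and deviated together from their group means (correlation 0.600), so the numbers pair the arrays.

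The fits used limma 3.58.1 under R 4.3.3 (lmFit, then eBayes, two-sided, Benjamini-Hochberg adjustment over 1246 probe sets, threshold 0.05), for streptozotocin without a block, and for the culture with treatment as a term. They were also run on simulated data. The simulated streptozotocin runs held no culture difference, so they do not check the fit without a block on arrays like these. A gene of a list was taken from its brightest probe set. Named were all probe sets of the 6 genes, the called members of each list with up to 4 more of the largest culture difference, and the 3 nearest profiles of Esm1, Thbd and Cd34, of which 1 gene is not reported here. Members and lists were chosen with earlier results of these data known. Alternatives were the replicate block, arrays left out, other normalizations, a filter on dim probe sets, other eBayes settings, the culture alone, and the mean of a gene's probe sets.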

Additional observations from a re-analysis of the deposited data

Results flagged for a closer look

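The streptozotocin difference had opposite signs in the cultures for Emcn, -0.52 in WTA and 0.12 in WT2, and for Pecam1, -0.078 in WTA and 0.035 in WT2. Each arm of a culture holds 1 array, so the difference between the cultures was not tested.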

How the results depend on the processing

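The count of probe sets called for WTA minus WT2, 28 with limma, was 13 with the culture alone, 8 after quantile normalization, 2 among the 623 probe sets above the median level and 49 with robust eBayes. It ranged from 0 to 18 with 1 array left out, and was 0 without either WTA array, which leaves 1 array in that culture and assumes that it varies like the other. All 7 probe sets kept the direction of their WTA minus WT2 difference under every alternative run, with ranges over the arrays left out of 4.68 to 5.18 and 2.68 to 3.19 for the Esm1 probe sets, 0.95 to 1.48 for Emcn, 0.83 to 1.84 for Thbd and -1.31 to -0.83 for Cd34. Cd34 was not called after quantile normalization (-1.04) or among the brighter probe sets. The streptozotocin count was 0 under every alternative, the replicate block included. Leaving out 1 array unbalances the cultures, and the streptozotocin difference then ranged from -2.09 to 2.92 and from -1.29 to 1.87 for the Esm1 probe sets, -0.97 to 0.56 for Emcn, -0.12 to 0.081 for Pecam1, -1.01 to 0.072 for Cd34, 0.01 to 0.28 for Icam2 and -0.27 to 1.48 for Thbd. Such values also hold the culture difference. The replicate block changed no call. The size gap between the Esm1 probe sets (1.99) moved by less than the spread between arms after median centring and quantile normalization. Dim probe sets (Pecam1, and Esm1 in WT2) limit what sizes can be read.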
